A study of Homo sapiens with 4 samples.

Results

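DNA replication and S-phase genes encode the proteins that prepare, start and carry out the copying of the genome. The 53 genes described here were picked as a named set by symbol, with no threshold on their values, and were found among the 63677 genes of RNA-seq read counts from IMR90, a line of fetal human lung fibroblasts. There were 2 libraries of cells transfected with a non-targeting control siRNA and 2 of cells transfected with siRNA against HMGB1, a chromatin-associated HMG-box protein, and all were harvested at 72 h. In each group replicate 1 was the isolate I90-10 and replicate 2 the isolate I90-79, both at passage 5, so each isolate gave 1 library per group. Both groups received a transfection, and untransfected cells were not analysed here. All 53 genes passed the filter on low counts, which left 15398 genes, and the smallest count of any of them in any library was 73.

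A cell copies its DNA once per division. In G1 phase the origin recognition complex, CDC6 and CDT1 load rings of MCM2 to MCM7 onto origins, which is called licensing. At the start of S phase the kinase CDC7 with its activator DBF4, helped by CDC45, the GINS complex and MCM10, turns the rings into active helicases, and primase and the DNA polymerases follow the fork, held to DNA by the sliding clamp PCNA. Many of these genes are transcribed under the control of E2F factors as cells commit to divide, so their RNA is high in cycling fibroblasts and low in cells that have left the cycle. In bulk RNA, fewer cells in S phase and less RNA per cell cannot be told apart.

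The libraries held 29869338 and 35317010 counted reads in the controls of I90-10 and I90-79 and 29861687 and 31086475 in the knockdowns. HMGB1 itself had 181 and 237 CPM in the controls (CPM are counts scaled to the library's total after TMM) and 16.0 and 18.9 CPM in the knockdowns, a log2-fold change of −3.59 (SE 0.19, adjusted p = 0.00751). Fibroblast genes were abundant in every library, with COL1A1 between 5665 and 12559 CPM. The 5 leukocyte markers summed to at most 0.208 CPM and the 5 epithelial markers to at most 0.715 CPM, both far below the fibroblast genes. The 4 endothelial markers found summed to between 135 and 150.0 CPM, nearly all of it TEK (131 to 149 CPM), while CDH5 was at 0 in every library. VWF, another endothelial marker, had 1.36 and 0.923 CPM in the controls and 4.16 and 2.59 CPM in the knockdowns and was called higher with the isolate as a term (log2-fold change 1.55, adjusted p = 0.00357). The part of these markers in the results was not tested. Calls come from edgeR's quasi-likelihood test over all 15398 genes and need both an adjusted p under 0.01 and a log2-fold change beyond 0.6 in size. No source names separate cultures behind the 2 libraries of a group beyond their isolates, so p-values concern these libraries only. They also borrow from the spread of all genes, with a weight of 3.321 prior degrees of freedom without the isolate and 6.916 with it. With the isolate as a term, few residual degrees of freedom are left for a gene's own spread. With 2 libraries against 2, an exact permutation test cannot give a two-sided p below 0.333.

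The promoters of the 6 genes that passed these thresholds once the isolate was a term in the fit are shown so that words found in them can be compared. Each line gives 230 bases from the RefSeq promoter table (build GRCh38.p14), 5′ to 3′ on the gene's own strand, from 200 bases before the start to 30 after it. Only the first start listed for each gene was kept, and other starts of a gene were not searched. Capitals mark matches on either strand to the E2F words TTTGGCGC, TTTCCCGC, TTTGCCGC and TTTCGCGC or to the word CCAAT.
PCNA: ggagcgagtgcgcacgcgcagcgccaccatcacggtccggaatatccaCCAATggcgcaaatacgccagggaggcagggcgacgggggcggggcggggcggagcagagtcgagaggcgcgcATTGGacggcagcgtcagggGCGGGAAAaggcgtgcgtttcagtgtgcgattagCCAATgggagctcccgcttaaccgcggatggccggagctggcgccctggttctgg
MCM7: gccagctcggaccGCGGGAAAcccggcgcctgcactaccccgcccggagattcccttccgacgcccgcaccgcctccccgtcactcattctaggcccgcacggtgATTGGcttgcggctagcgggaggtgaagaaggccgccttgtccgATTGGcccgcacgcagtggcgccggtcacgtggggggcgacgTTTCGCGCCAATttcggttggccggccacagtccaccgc
GINS1: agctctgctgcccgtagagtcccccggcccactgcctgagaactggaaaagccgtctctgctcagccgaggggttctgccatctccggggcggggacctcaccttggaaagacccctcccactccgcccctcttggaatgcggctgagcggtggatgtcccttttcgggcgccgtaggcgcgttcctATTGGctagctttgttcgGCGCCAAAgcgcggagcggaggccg
TYMS: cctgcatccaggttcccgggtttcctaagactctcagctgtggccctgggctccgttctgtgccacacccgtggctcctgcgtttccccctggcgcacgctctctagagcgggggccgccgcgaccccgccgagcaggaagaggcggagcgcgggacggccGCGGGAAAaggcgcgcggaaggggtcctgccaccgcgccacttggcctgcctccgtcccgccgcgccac
ORC6: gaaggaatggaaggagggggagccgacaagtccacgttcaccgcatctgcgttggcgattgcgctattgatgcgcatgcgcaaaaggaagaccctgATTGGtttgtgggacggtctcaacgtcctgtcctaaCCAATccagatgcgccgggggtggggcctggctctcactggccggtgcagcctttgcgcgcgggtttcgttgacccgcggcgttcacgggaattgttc
DUT: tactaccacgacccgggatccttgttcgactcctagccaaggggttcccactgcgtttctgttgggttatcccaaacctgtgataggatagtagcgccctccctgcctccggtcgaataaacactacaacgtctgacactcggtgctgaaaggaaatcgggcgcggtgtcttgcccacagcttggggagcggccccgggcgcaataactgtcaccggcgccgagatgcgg
The stretches lie at chr20:5126593-5126822 (PCNA, minus strand), chr7:100101368-100101597 (MCM7, minus strand), chr20:25407473-25407702 (GINS1, plus strand), chr18:657453-657682 (TYMS, plus strand), chr16:46689459-46689688 (ORC6, plus strand) and chr15:48330895-48331124 (DUT, plus strand). PCNA, MCM7, GINS1 and TYMS held an E2F word, ORC6 held only CCAAT, and DUT held neither, so no searched word was common to all 6. MCM7 had 2 E2F words, of which the one next to the start overlaps a CCAAT word by shared letters. PCNA, the gene that fell, held the E2F word TTTCCCGC on the opposite strand, which MCM7 and TYMS hold too.

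The promoter table held 46 of the 53 genes, and an E2F word occurred within its full 300 bases (250 before the start and 50 after it) in 20 of them, or 43.5%. Of all 27305 promoters of that length in the table, 3.33% held one. CCAAT was found in 52.2% of the replication promoters and in 35.7% of all promoters. The word TTTGAA, known as the CHR element of mitotic genes, stood in 4.35% and 15.4%, and TATAAA in 4.35% and 12.0%. The replication promoters were also richer in G and C, with a median of 67.5% against 58.3%, and the part of base composition in the shares was not tested. A match is a description of letters and says nothing of binding.

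The first question was whether siRNA against HMGB1 changed the RNA of these genes. Most had a log2-fold change above 0, but the changes were small and uneven. In the edgeR fit without a term for the isolate and with the filter on low counts, 0 of the 53 genes were called in either direction. With the isolate as a replicate block, MCM7, ORC6, GINS1, TYMS and DUT rose and PCNA fell, and the same 6 genes were called with no isolate term when no filter was applied. That unfiltered fit gave MCM7, PCNA and RRM2 the same SE of 0.16, against 0.31, 0.17 and 0.38 with the filter. It thus held little of each gene's own spread, and its calls are not separate support. The 6 genes called with the block belong to 4 different steps of replication, namely licensing, helicase activation, the clamp and nucleotide supply.

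Of the 53 genes, 42 had a log2-fold change above 0 and 11 below 0. The median was 0.19, against −0.01 over all genes tested, and the changes ran from −1.01 to 1.16. The filtered edgeR fit without the isolate called 0.0649% of all genes higher and 0.136% lower. At an unadjusted p below 0.05, 5 of the 53 genes were higher and 2 lower, or 9.43% and 3.77%, against 13.6% and 14.7% of all genes. DESeq2 without the isolate called GINS1 and DUT higher and PCNA lower, against 4.73% and 5.31% of all genes. The unfiltered edgeR fit called 5 genes higher and 1 lower, against 4.08% and 4.65% of all genes in it. With the block, edgeR called 5 genes higher (9.43%, against 6.68% of all genes) and 1 lower (1.89%, against 7.84%). The share called higher was therefore near that of all genes, and the share called lower was below it, so these counts by themselves set nothing apart. The block median was 0.22.

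Both knockdown libraries lay above both control libraries for 13 of the genes (24.5%) and below them for 7 (13.2%), against 29.8% and 30.2% of all genes. Within isolates, 32 genes were higher in the knockdown in both (60.4%, against 38.9% of all genes) and 8 were lower in both (15.1%, against 39.4%). Another 13 moved in opposite directions (24.5%), as did 3340 of all 15398 genes, which is a similar share. The median log2-fold change was 0.35 in I90-10, where 44 genes were higher in the knockdown, and 0.08 in I90-79, where 33 were. These within-isolate values compare 1 library with 1 and have no test.

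The control library of I90-10 had the lowest level of the 4 for 43 of the 53 genes, or 81.1%, against 30.9% of all genes tested. Summed over the 53 genes it held 1438 CPM, against 2120 in the control of I90-79, 1869 in the knockdown of I90-10 and 2233 in the knockdown of I90-79. Without that library the median change of the 53 genes was −0.06, and without the control of I90-79 it was 0.59. The summed levels of both knockdown libraries were above the control of I90-10, and the control of I90-79 lay between them. Leaving out the control of I90-79 took the log2-fold change of MCM7 to 1.47 in the fit without the isolate.

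**Figure D1:**
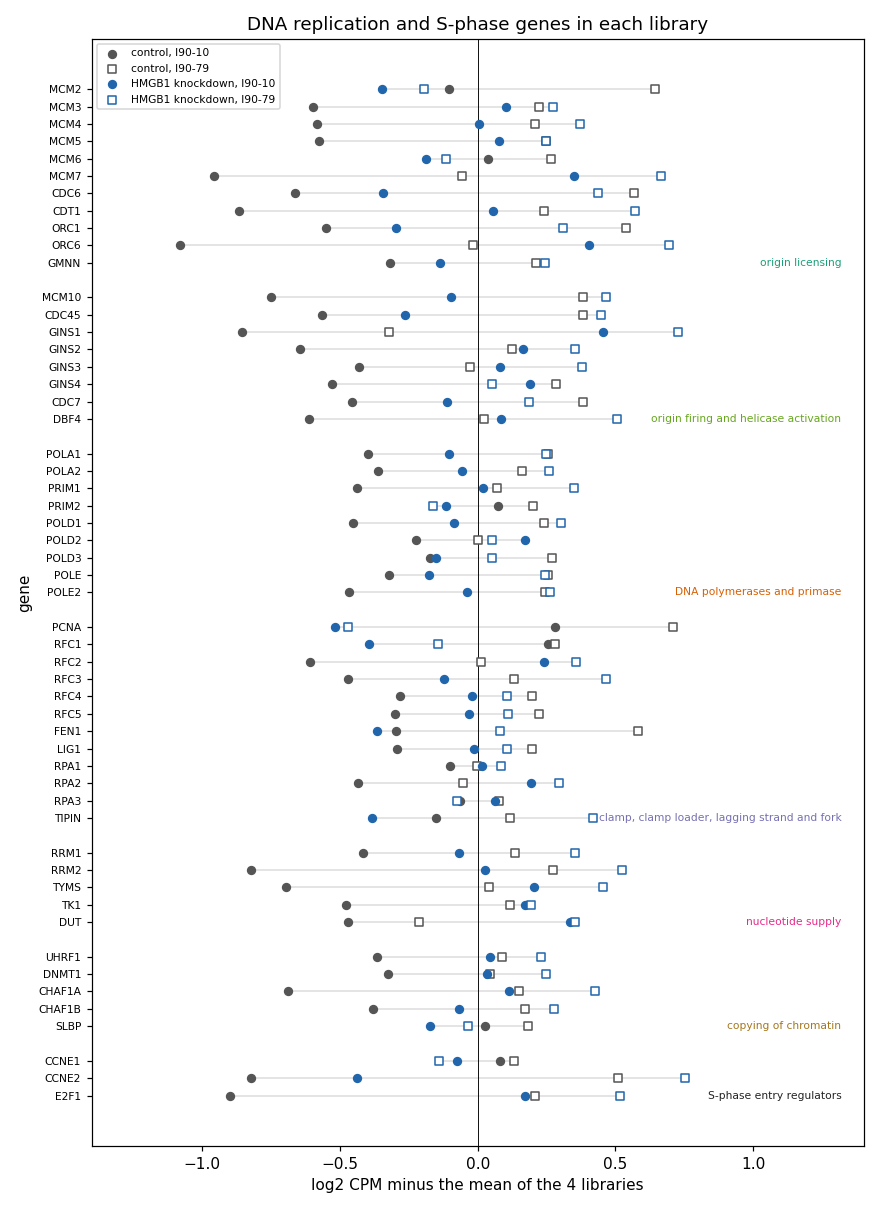
Level of each of the 53 genes in each of the 4 libraries, as the log2 of its CPM minus the mean of the 4 libraries (x axis), with genes in rows ordered by their role (y axis). Grey marks are controls, blue marks knockdowns, filled circles I90-10 and open squares I90-79, and the filled grey circle is the leftmost mark in 43 of 53 rows.

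Origin licensing takes in 11 of the genes, and 8 had a change above 0, with a median log2-fold change of 0.27. MCM7 (chromosome 7, 99690351 to 99699563, in hg19 as all gene positions here), a subunit of the MCM ring, had 57.9 and 108 CPM in the controls of I90-10 and I90-79 and 143 and 178 CPM in the knockdowns. The groups did not overlap, and within each group I90-79 was the higher library. The mean went from 82.7 ± 35.1 to 161 ± 25.0 CPM (SD, n = 2 each), a log2-fold change of 0.96 (SE 0.31, adjusted p = 0.121) and, with the block, of 1.01 (SE 0.14, adjusted p = 0.00124). Without the control of I90-10 the change was 0.58, and without the control of I90-79 it was 1.47. Of its exonic bases 8.94% overlap AP4M1 on the opposite strand, and the strand setting of the counting is not given in the sources used here.

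ORC6 (chromosome 16, 46723555 to 46732306), the smallest subunit of the origin recognition complex, had 7.32 and 15.3 CPM in the controls and 20.5 and 25.1 CPM in the knockdowns. The order of the 4 libraries was the same as for MCM7, with the control of I90-10 farthest from the rest. Its log2-fold change was 1.01 (SE 0.36, adjusted p = 0.147) without and 1.07 (SE 0.19, adjusted p = 0.00357) with the block. It was 0.57 without the control of I90-10 and 1.64 without the control of I90-79. Pieces of 50 bases shared with other genes, most of them with FKSG68, made up 8.96% of the pieces of its transcripts. Its counts are uncertain for that reason, by an amount that was not measured.

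The 6 subunits of the MCM ring did not move as one. They are described whole here because they form a single complex, a choice made after their values were seen. MCM2 had 28.4 and 47.7 CPM in the controls and 24.0 and 26.7 CPM in the knockdowns. It was lower in both isolates, with a log2-fold change of −0.59 (SE 0.26, adjusted p = 0.214) and −0.55 with the block (adjusted p = 0.0253), and RUVs with DESeq2 called it lower, as it did 5.39% of all genes (4.96% were called higher). MCM6, at 39.5 and 46.3 CPM against 33.8 and 35.6 CPM, was also lower in both isolates without passing a threshold (−0.31, SE 0.13, adjusted p = 0.204). MCM3, MCM4 and MCM5 lay between, with log2-fold changes of 0.32, 0.34 and 0.27, and for each the control of I90-10 was the lowest library. For MCM5 the 2 libraries of I90-79 were equal at 42.6 CPM.

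**Figure D2:**
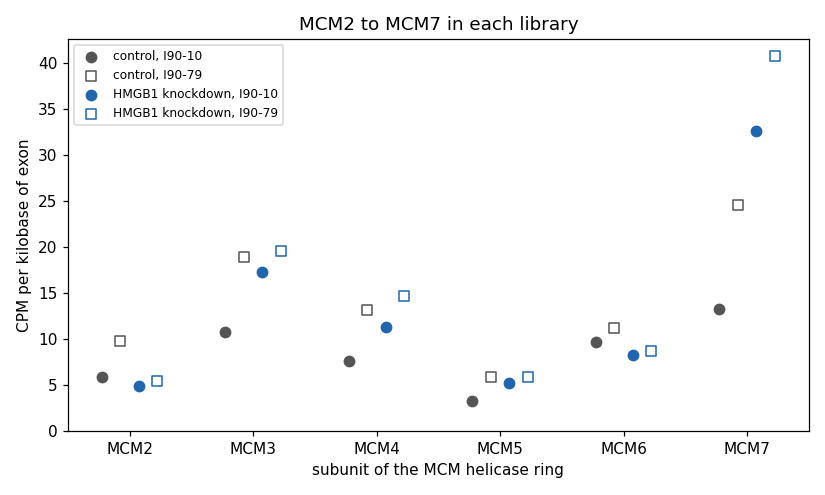
Level per kilobase of exon (y axis, CPM per kb) of MCM2 to MCM7 (x axis) in the 4 libraries, with grey marks for controls, blue for knockdowns, filled circles for I90-10 and open squares for I90-79. MCM7 reached 40.7 CPM per kb in the knockdown of I90-79 against 13.2 in the control of I90-10, while both knockdown libraries of MCM2 and MCM6 lay below both controls.

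The loading factors showed no called change. CDC6, which with ORC helps to load the ring, had 18.3 and 42.9 CPM in the controls and 22.8 and 39.2 CPM in the knockdowns, and its libraries separated by isolate and not by siRNA. CDT1, its partner in loading, had 6.54 and 14.1 CPM against 12.4 and 17.7 CPM, with a block log2-fold change of 0.61 that missed the threshold (adjusted p = 0.0304). For ORC1, the ATPase subunit of the origin recognition complex, and GMNN, the inhibitor of CDT1, the log2-fold changes were −0.06 and 0.10.

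All 8 genes of origin firing and helicase activation had a log2-fold change above 0, with a median of 0.37. GINS1 (chromosome 20, 25388363 to 25433264), a subunit of the 4-member GINS complex, had 5.65 and 8.17 CPM in the controls and 14 and 16.9 CPM in the knockdowns. The groups did not overlap, and the increase was of similar size in I90-10 (log2-fold change 1.30) and I90-79 (1.04). From 6.91 ± 1.78 to 15.5 ± 2.06 CPM (SD, n = 2 each), it had the highest log2-fold change of the 53 genes, 1.16 (SE 0.24, adjusted p = 0.0491), and 1.17 with the block (SE 0.15, adjusted p = 0.00091).

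The other 3 GINS subunits did not pass a threshold. GINS2 had 8.27 and 14.1 CPM in the controls and 14.5 and 16.5 CPM in the knockdowns (log2-fold change 0.46, adjusted p = 0.336). GINS3 had 5.00 and 6.62 CPM against 7.13 and 8.77 CPM (0.45, adjusted p = 0.277). GINS4, at 13.5 and 23.7 CPM against 22.2 and 20.2 CPM, was higher in the knockdown of I90-10 and lower in that of I90-79. Its counts are uncertain, since 23.6% of its exonic bases overlap other genes on the opposite strand. DBF4, the activator of the kinase CDC7, had 11.7 and 18.2 CPM against 19.0 and 25.4 CPM. Its block log2-fold change of 0.59 (SE 0.13, adjusted p = 0.00958) passed the threshold on p and just missed that on the fold, and 14.8% of its 50-base pieces are shared with other genes, most of them with DBF4P1. CDC7 itself, CDC45 and MCM10 had log2-fold changes of 0.02, 0.14 and 0.28, none of them called.

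None of the 9 subunits of primase and the DNA polymerases were called by edgeR in either fit or by DESeq2, and 0 had an unadjusted p below 0.05 in edgeR. Their median log2-fold change was 0.18, within a range from −0.28 to 0.35, and 7 were above 0. POLD2, a subunit of the lagging-strand polymerase delta, had 72.4 and 84.6 CPM in the controls and 95.3 and 87.7 CPM in the knockdowns. Its groups did not overlap, but the step was small, at 0.22 (SE 0.13, adjusted p = 0.317). PRIM2, the large primase subunit, had 18.6 and 20.3 CPM against 16.3 and 15.8 CPM (−0.28, SE 0.14, adjusted p = 0.254), and 12.5% of its 50-base pieces occur in other genes. POLE2, a subunit of the leading-strand polymerase epsilon and among the lowest of the 53 genes, had 3.13 and 5.13 CPM against 4.22 and 5.19 CPM. Its change of 0.18 turned to −0.05 under RUVs and to −0.12 without the control of I90-10. POLA1, POLA2, PRIM1, POLD1, POLD3 and POLE had changes from −0.11 to 0.35.

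The clamp, its loader and the factors that finish the lagging strand or guard the fork made up 12 of the genes, with a median log2-fold change of 0.07. PCNA (chromosome 20, 5095599 to 5107272), the ring that holds polymerases on DNA, had 90.1 and 121 CPM in the controls and 51.7 and 53.5 CPM in the knockdowns. Both knockdowns lay below both controls, and it fell in I90-10 (−0.80) and in I90-79 (−1.18). The mean went from 106 ± 21.9 to 52.6 ± 1.23 CPM (SD, n = 2 each), a log2-fold change of −1.01 (SE 0.17, adjusted p = 0.032) and, with the block, of −0.99 (SE 0.12, adjusted p = 0.00061). PCNA is also known as a target of p53 as well as of E2F. Among other known targets of p53, RRM2B fell in both isolates (−1.07 and −1.01) and CDKN1A was higher in both (0.22 and 0.4). The change of CDKN1A was not called, and the part of p53 was not tested. Less than 1% of the 50-base pieces of PCNA occur in other genes (0.222%).

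RFC1, the large subunit of the clamp loader, had 66.4 and 67.7 CPM in the controls and 42.4 and 50.4 CPM in the knockdowns. Its groups did not overlap, but its log2-fold change of −0.53 (SE 0.13, adjusted p = 0.0703, and 0.00634 with the block) is below the fold threshold. The 4 small loader subunits did not share this direction, as RFC2, RFC3, RFC4 and RFC5 had changes of 0.56, 0.34, 0.06 and 0.05, none of them called. Among the subunits of RPA, the single-stranded DNA binding complex, RPA2 had 31.0 and 40.3 CPM against 47.9 and 51.3 CPM (0.47, adjusted p = 0.133, and 0.0124 with the block), while RPA1 and RPA3 had changes of 0.10 and −0.01. FEN1, the flap nuclease, LIG1, the ligase of lagging-strand fragments, and TIPIN, a fork protection factor, had changes of −0.33, 0.07 and 0.09.

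All 5 genes of nucleotide supply had a log2-fold change above 0 in both isolates, with a median of 0.47. DUT (chromosome 15, 48623208 to 48635570), which removes dUTP and feeds thymidylate synthesis, had 29.1 and 34.8 CPM in the controls and 50.9 and 51.5 CPM in the knockdowns. The groups did not overlap, and the mean went from 32.0 ± 4.08 to 51.2 ± 0.442 CPM (SD, n = 2 each). Its log2-fold change was 0.68 (SE 0.14, adjusted p = 0.0453) and, with the block, 0.68 (SE 0.11, adjusted p = 0.00242). Of its exonic bases 6.34% overlap DUT-AS1 on the opposite strand.

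TYMS (chromosome 18, 657604 to 673578), thymidylate synthase, had 27.0 and 45 CPM in the controls and 50.4 and 60.0 CPM in the knockdowns. The groups did not overlap, but the gap between the control of I90-79 and the knockdown of I90-10 was small beside the gap between the controls. Its log2-fold change was 0.62 (SE 0.26, adjusted p = 0.199) and, with the block, 0.65 (SE 0.13, adjusted p = 0.00727). It ranged from 0.30 without the control of I90-10 to 1.03 without the control of I90-79. TYMS is uncertain, since 26.2% of its exonic bases overlap ENOSF1 and TYMSOS on the opposite strand.

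RRM1 and RRM2 encode the subunits of ribonucleotide reductase, which makes deoxynucleotides. RRM1 had 88.0 and 129 CPM in the controls and 112 and 150.0 CPM in the knockdowns (log2-fold change 0.27, SE 0.24, adjusted p = 0.501). RRM2 had 77.1 and 165 CPM against 139 and 196 CPM (0.47, SE 0.38, adjusted p = 0.467, and 0.0207 with the block). The change of RRM2 was 0.02 without the control of I90-10, 1.12 without the control of I90-79 and 0.12 under RUVs. For both genes, the order of the libraries was set as much by the isolate as by the siRNA, since the control of I90-79 lay above the knockdown of I90-10. TK1, the salvage kinase for thymidine, had a change of 0.33 (adjusted p = 0.358).

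**Figure D3:**
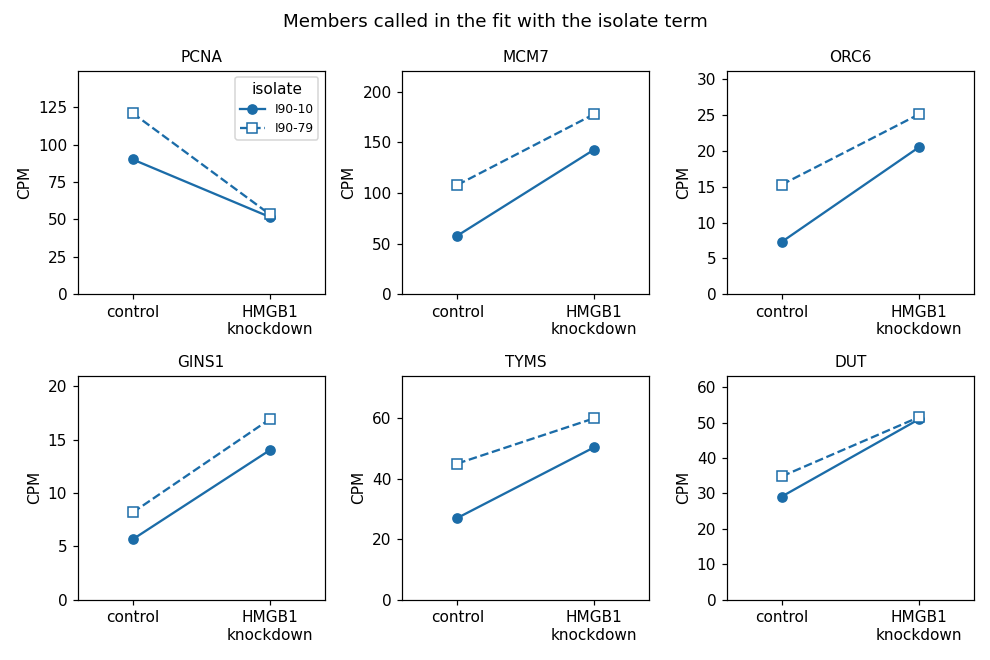
Levels in CPM (y axis, from 0) of the 6 genes that passed both thresholds in the blocked fit, in control and HMGB1 knockdown cells (x axis), with 1 line per isolate, solid for I90-10 and dashed for I90-79. PCNA runs down in both isolates to 51.7 and 53.5 CPM, and MCM7, ORC6, GINS1, TYMS and DUT run up in both.

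The 5 genes that copy chromatin with the DNA had a median log2-fold change of 0.26 and none were called by edgeR or DESeq2. At an unadjusted p below 0.05, 0 were higher without the block and 3 with it, where 21.6% of all genes were higher and 22.0% lower at that p. CHAF1A, a subunit of the histone chaperone CAF-1, had 16.9 and 30.2 CPM in the controls and 29.5 and 36.6 CPM in the knockdowns (0.49, SE 0.30, adjusted p = 0.336). SLBP, which binds the stem-loop of histone mRNAs, had 58.8 and 65.5 CPM against 51.3 and 56.4 CPM, lower in both isolates (−0.21, SE 0.12, adjusted p = 0.327). The methylation maintenance factors DNMT1 and UHRF1 and the second CAF-1 subunit CHAF1B had changes of 0.27, 0.26 and 0.19. UHRF1 shares 20.2% of its 50-base pieces with other genes.

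None of the 3 regulators of S-phase entry were called by edgeR or DESeq2. E2F1, the founding E2F factor, had 7.56 and 16.3 CPM in the controls and 15.9 and 20.2 CPM in the knockdowns (0.60, SE 0.38, adjusted p = 0.352, and 0.0286 with the block), and the change was 0.15 without the control of I90-10 and 1.26 without the control of I90-79. CCNE1, a cyclin E, had 8.41 and 8.71 CPM against 7.55 and 7.20 CPM (−0.21, SE 0.17, adjusted p = 0.467). CCNE2, the other cyclin E, had 2.49 and 6.27 CPM against 3.25 and 7.43 CPM. Its change of 0.28 (SE 0.57, adjusted p = 0.785) became negative under RUVs (−0.34), without the control of I90-10 (−0.23) and without the knockdown of I90-79 (−0.43), and 37.1% of its exonic bases overlap other genes, among them INTS8.

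The rule for these genes asks for a comparison of origin, polymerase and nucleotide supply genes. The 19 genes of licensing and firing, pooled as origin genes, had a median log2-fold change of 0.28, the 9 polymerase genes 0.18 and the 5 nucleotide supply genes 0.47. With the block the medians were 0.35, 0.20 and 0.55, and the genes called numbered 3 of 19, 0 of 9 and 2 of 5, all higher, against 6.68% of all genes. Within I90-10 the medians were 0.64, 0.30 and 0.80, and within I90-79 they were 0.06, 0.02 and 0.25. The order was thus the same in each isolate, with nucleotide supply highest and polymerases lowest, while the size differed. Genes of a group are not replicates, so the difference between groups has no test. Leaving out 1 library could move these medians by more than the groups differ. Without the control of I90-10 the origin, polymerase and nucleotide supply medians were −0.08, −0.12 and 0.07. Without the control of I90-79 they were 0.76, 0.47 and 0.82. Without the knockdown of I90-79 the polymerase median was −0.02. Under RUVs with DESeq2 the origin, polymerase and nucleotide supply medians were 0.05, −0.07 and 0.19.

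**Figure D4:**
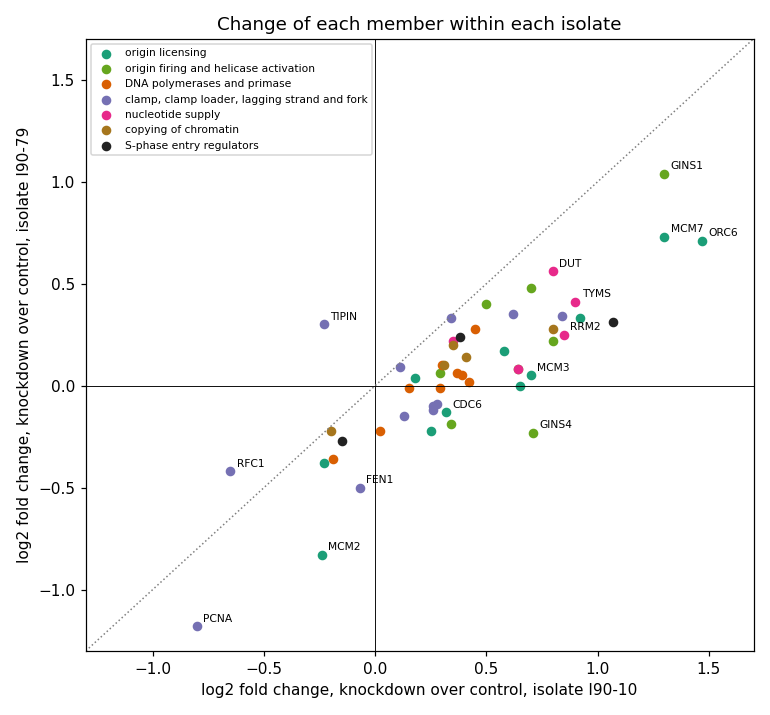
Log2-fold change of each of the 53 genes, knockdown over control, within I90-10 (x axis) and within I90-79 (y axis), coloured by role, with 1 library against 1 on each axis. Most points lie below the dotted line of equal change, with medians of 0.35 in I90-10 and 0.08 in I90-79, and PCNA lies far to the lower left.

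The second question was how far the genes differ between the isolates within each siRNA group. I90-10 was always replicate 1 and I90-79 always replicate 2. A difference between isolates therefore cannot be told apart from any other difference between the replicates. I90-79 was above I90-10 for 53 of 53 genes in the controls and for 48 of 53 in the knockdowns, with median log2 differences of 0.59 and 0.29. In the fit with both terms, the coefficient for I90-79 against I90-10 was above 0 for 52 of 53 genes (98.1%, against 50.8% of all genes), with a median of 0.46, against 0.01 over all genes. At an adjusted p below 0.05, 16 genes were higher in I90-79 (30.2%, against 2.7% of all genes). At the full thresholds edgeR called CDC6 higher and 0 genes lower (0 lower also at an unadjusted p below 0.05), against 0.442% and 1.23% of all genes.

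CDC6 had a log2 difference between isolates of 1.0 (SE 0.13, adjusted p = 0.00668), and DESeq2 called 6 genes higher, namely MCM7, CDC6, CDC45, FEN1, RRM2 and CCNE2, against 1.08% of all genes. CCNE2 had the highest value, 1.26 (SE 0.20, adjusted p = 0.0114). ORC1, MCM10, CDC45 and RRM2 followed CDC6 with 0.85, 0.84, 0.83 and 0.80. At the other end, CCNE1, RPA3, PRIM2, POLD2 and RPA1 had −0.01, 0.00, 0.04, 0.05 and 0.08. By role the medians were 0.53 for origin genes, 0.42 for polymerases, 0.31 for the clamp and lagging strand, and 0.49 for nucleotide supply. DUT and PCNA, both called for the siRNA with the block, had small isolate differences of 0.14 and 0.24.

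Other measures moved with the isolate as well. All 15 markers of G2 phase and mitosis were higher in I90-79, with a median of 0.58. CENPE, a mitotic kinesin, was called higher (0.98, adjusted p = 0.0028), as were 0.442% of all genes. Of 10 fibroblast markers 9 were lower in I90-79 and 5 were called lower (against 1.23% of all genes), among them COL1A1 and COL1A2. Their summed level was 32985 and 32024 CPM in the I90-10 libraries and 17435 and 20269 CPM in those of I90-79. The I90-79 libraries were also deeper in each group. The part of these measures in the isolate difference was not tested.

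Ordered by level per kilobase of exon and averaged over the 4 libraries, PCNA was highest at 53.8 CPM per kb, followed by RRM2 (29.2) and RRM1 (28.7). At the low end stood POLE2 (1.5), GINS3 (1.35) and CCNE2 (1.10). SLBP, MCM7 and POLD2 came after RRM1, with 28.6, 27.7 and 23.2 CPM per kb. This mean pools both groups, and the order changed between libraries. In the knockdown of I90-79, MCM7 (40.7) and RRM2 (39.6) were above PCNA (36.4), and in the control of I90-10 SLBP (29.0) was above RRM2 (15.6). Neighbours in this order overlapped in their range over the libraries in all 52 cases. These ranges pool both groups and both isolates, and some neighbours kept their order in every library, as RPA2 above TYMS and CHAF1B above POLE2 did.

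Other genes of the same pathways, not among the 53, moved in both directions. Of 38 other genes of the replication machinery, 30 had a log2-fold change above 0, with a median of 0.22. Without the block edgeR called 0, with 4 higher and 2 lower at an unadjusted p below 0.05 (13.6% and 14.7% of all genes). With the block, calls over all genes were 6.68% higher and 7.84% lower. With it 4 rose, namely TIMELESS, the partner of TIPIN (0.86), ORC2, a subunit of the origin recognition complex (0.79), MCM8, a helicase subunit (0.65), and the histone chaperone ASF1A (0.61). ORC4, also of the origin recognition complex (−0.89), and the fork factor DONSON (−0.88) fell. Thus within the origin recognition complex ORC6 and ORC2 rose and ORC4 fell.

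Of 25 other genes of nucleotide synthesis, 20 were above 0, with a median of 0.15. Without the block edgeR called 0, with 10 higher and 5 lower at an unadjusted p below 0.05 (13.6% and 14.7% of all genes). With it SHMT2 (1.52) and SHMT1 (0.80), which supply one-carbon units, the kinase DCK (1.08) and the folate enzyme MTHFD1 (0.62) rose. RRM2B, the ribonucleotide reductase subunit induced by p53 (−1.04), MTHFD2 (−0.89), CTPS1 (−0.85) and ADSS (−0.76) fell, so 4 of 25 were called in each direction, against 6.68% and 7.84% of all genes. The 15 markers of G2 phase and mitosis had 0 genes called by edgeR in both fits, with 6 above and 9 below 0, and at an unadjusted p below 0.05 there were 0 without the block and 1 higher and 2 lower with it (21.6% and 22.0% of all genes). Their medians were 0.41 in I90-10 and −0.31 in I90-79.

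Among 13 genes known as brakes on the cell cycle, CDKN2B, which encodes the CDK inhibitor p15, was called in the fit without the isolate. It had 34.8 and 38.4 CPM in the controls and 153 and 161 CPM in the knockdowns (2.10, SE 0.12, adjusted p = 0.00751). With the block CDKN2B was called higher too, and RBL2 (−0.62), a pocket protein, and E2F6 (−0.66), a repressor of E2F targets, were called lower. Over all genes, 0.0649% were called higher and 0.136% lower without the block, and 6.68% and 7.84% with it. CDKN1A, which encodes p21 and is a known target of p53 like PCNA and RRM2B, was added after its values were seen. It had 1118 and 1095 CPM in the controls and 1307 and 1441 CPM in the knockdowns. Its log2-fold change of 0.31 (SE 0.15, adjusted p = 0.229, and 0.0452 with the block) was not called. Of the 13 brakes, 7 had a change above 0 and 6 below 0.

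**Figure D5:**
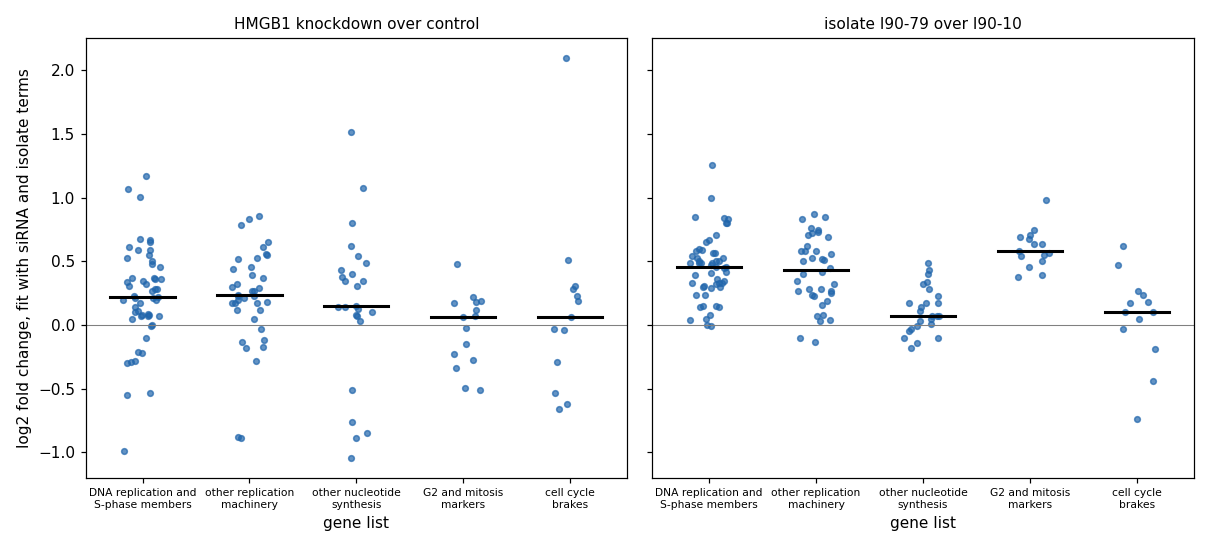
Log2-fold changes (y axis) from the fit with siRNA and isolate terms, for the knockdown over control (left) and for I90-79 over I90-10 (right), with 1 point per gene and a bar at the median of each gene list (x axis). On the left the medians of the 5 lists lie between 0.06 and 0.24, and on the right those of the 53 genes and of the G2 and mitosis markers stand at 0.46 and 0.58.

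The word GCAGTT, picked from these same data in earlier work because genes that hold it in the 3′ UTR were lower after the siRNA, was counted in the 53 genes as a description. It was present in the annotated 3′ UTR of 16 of 52 genes with a 3′ UTR of at least 100 bases (30.8%, against 37.9% of all such genes tested). The median log2-fold change was 0.04 for the 16 genes with the word and 0.30 for the 36 without it, and over all genes it was −0.14 and 0.07. Of the 16 genes with the word, 10 had a change above 0, among them GINS2 (0.46) and DNMT1 (0.27), and 6 below 0, among them PCNA and RFC1. MCM7, ORC6, GINS1, TYMS and DUT did not hold it, and neither did MCM2, SLBP and CCNE1, whose changes were below 0.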

How the data were processed

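RNA was measured in 2 control and 2 HMGB1 knockdown libraries of IMR90. Per the labels and the study's methods, the authors selected poly(A) RNA, built TruSeq libraries, mapped reads to hg19 with STAR and counted them on genes with featureCounts. The deposited values are raw counts per gene, not normalized, with an exon length per gene. Versions and the strand setting are not given in the sources used here.

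Member symbols were matched to gene identifiers on primary chromosomes, 52 by symbol and UHRF1 by coordinates. Counts were filtered with filterByExpr, scaled by TMM and tested with edgeR 4.0.16 (R 4.3.3, limma 3.58.1), with Benjamini-Hochberg adjustment over 15398 genes and without the isolate. CPM are TMM-scaled. Within-isolate changes used a pseudocount of 0.1 CPM. The scripts were tested on simulated data.

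The same isolate in both groups pairs the libraries, as the labels state, and the isolate difference in the controls correlated at 0.431 with that in the knockdowns across genes. Alternatives were the replicate block, DESeq2 1.42.0, RUVs with 1 factor (written out here), other scalings, filters, thinning and thresholds, and leaving out each library.

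The 53 genes are a list of symbols with no threshold on values, but they, the other lists and the tests were drawn up with earlier results of these data known. Values in each library are given for the 19 genes called in either fit, with the 2 smallest p of their role, or with the 3 highest or lowest levels, and for MCM2 to MCM6, CDC6, CDT1, RPA2, GINS2 and GINS4, added after their values were seen. PECAM1 was not found in the symbols used. The 3′ UTRs came from protein-coding transcripts of GENCODE v44 lifted to hg19, as did the read sharing.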

Additional observations from a re-analysis of the deposited data

Results flagged for a closer look

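Of the 53 genes, 13 moved in opposite directions in the 2 isolates (24.5%), as did 3340 of all 15398 genes. The share was near that of all genes, so this count by itself sets nothing apart. CDC6 was among the 13, with a log2-fold change of 0.32 in I90-10 and −0.13 in I90-79. GINS4 had 0.71 in I90-10 and −0.23 in I90-79, and 23.6% of its exonic bases overlap genes on the opposite strand. ORC1 (0.25 and −0.22) and TIPIN (−0.23 and 0.30) also changed direction. The same held for the median of the 12 genes of the clamp, its loader, the lagging strand and the fork, at 0.19 in I90-10 and −0.09 in I90-79, and for the median of the 15 markers of G2 phase and mitosis, at 0.41 and −0.31. Each isolate had 1 library per group, so none of these differences between isolates was tested.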

How the results depend on the processing

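The count of the 53 genes called higher, 0 without the isolate, was 5 with the replicate block, 5 with no filter on low counts, 5 for DESeq2 with the block, 3 under RUVs, 2 for DESeq2 and 2 at an adjusted p below 0.05. The count called lower, also 0, was 1 with the block, 1 with no filter, 1 for DESeq2 with and without the block, 3 under RUVs (MCM2, PCNA and FEN1) and 1 at an adjusted p below 0.05. Chosen after seeing the data, the block at an adjusted p below 0.05 gave 7 higher and 1 lower, and with no threshold on the fold 6 and 2. Shares over all genes at these later settings were not computed, so those counts set nothing apart. DESeq2 with the block called 967 higher and 1091 lower of 15398 genes. At an adjusted p below 0.05 and any fold, edgeR without the block had 2 of the 53 genes higher and 1 lower, against 606 and 693 of all genes. With the block these were 13 and 3, against 2452 and 2516. The leave-one-out fits leave 1 library in a group, so their counts of calls are not given. The median change of 0.19 was −0.02 under RUVs and ran from −0.06 to 0.59 with a library left out. For origin genes (0.28) the leave-one-out medians ran from −0.08 to 0.76, with 0.05 under RUVs. For polymerases (0.18) they ran from −0.12 to 0.47, with −0.07 under RUVs. For nucleotide supply (0.47) they ran from 0.07 to 0.82, with 0.19 under RUVs. POLE2 turned to −0.05 under RUVs and to −0.12 without the control of I90-10. CCNE2 turned to −0.34 under RUVs and to −0.23 without the control of I90-10 and −0.43 without the knockdown of I90-79, with 1.11 at the other end. The isolate test called 1 gene in edgeR and 6 in DESeq2. In all, 67 values of these counts and medians, some of them given above, moved by less than 1.5 times or by less than the spread between replicates. That spread was wide, and the change of sign to −0.08 for origin genes lay within it. Of the values for single genes 235 kept direction and side of the threshold and 26 newly passed it. The cause of these differences was not tested. Of the 53 genes, pairing the libraries by isolate changed the calls of the 6 that were called with it and of no other, and over all genes it took the calls from 10 higher and 21 lower to 1028 and 1207. A replicate block with a library left out could not be fitted, since 3 libraries leave no residual degrees of freedom, and 2 libraries per group limit every test here.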
